A study of Mus musculus with 16 samples.

Results

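The phagocyte NADPH oxidase is the enzyme that makes the respiratory burst of neutrophils, macrophages and dendritic cells. The transcripts of 6 genes that build or switch it were followed: Cybb, Cyba, Ncf1, Ncf4, Rac1 and Rac2. The genes were chosen as subunits and switches of the enzyme, with earlier results of these data known, and each had exactly 1 single-gene probe set on the array, so the 6 genes are 6 of 10236 tested. Values come from Affymetrix Mouse Gene 1.0 ST arrays of 16 cultures of dendritic cells raised from C57BL/6 mouse bone marrow with GM-CSF at 10 ng/mL. The cultures form 4 groups of 4: 290 mOsm/L without LPS, 290 mOsm/L with LPS, 450 mOsm/L without LPS, and 450 mOsm/L with LPS. The higher osmolarity came from NaCl added from day 3, cells were collected on day 7, and they were then plated for 6 h with no LPS or with LPS, the bacterial ligand of Tlr4, at 10 ng/mL. Each of 4 mice gave 1 culture to every group, and no genetic alteration is labelled in any of them. Sex and age of the mice are not given in the labels.

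The oxidase moves electrons from NADPH in the cytosol to oxygen on the far side of a membrane and so makes superoxide. Its membrane core is a pair of proteins, the catalytic chain encoded by Cybb (gp91phox, also called Nox2) and the smaller chain encoded by Cyba (p22phox), which depend on each other for stability. In a resting cell the regulators wait in the cytosol. The organiser encoded by Ncf1 (p47phox) is phosphorylated and carries the complex to Cyba at the membrane, the subunit encoded by Ncf4 (p40phox) binds a phosphoinositide of phagosomes, and a Rac GTPase (Rac2 is mostly found in blood cells, Rac1 in nearly all cells) switches the complex on. Loss of any of the first 4 in people gives forms of chronic granulomatous disease. In dendritic cells the enzyme is known for slowing the acidification of phagosomes during antigen processing.

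The upstream sequences of Cybb and Ncf1 are shown first, because both transcripts rose with salt alone and with LPS alone, as did Rac2. RefSeq's promoter table (GRCm38.p6) held entries for 3 of the 6 genes, Cybb, Cyba and Ncf1. Each sequence is the 250 bases before the annotated start, on the minus strand of its chromosome, and capitals mark the core of an interferon response element (GAAA, any 2 bases, GAAA) on either strand. The Cybb stretch is chrX:9469325-9469574 and the Ncf1 stretch is chr5:134229626-134229875.
Cybb: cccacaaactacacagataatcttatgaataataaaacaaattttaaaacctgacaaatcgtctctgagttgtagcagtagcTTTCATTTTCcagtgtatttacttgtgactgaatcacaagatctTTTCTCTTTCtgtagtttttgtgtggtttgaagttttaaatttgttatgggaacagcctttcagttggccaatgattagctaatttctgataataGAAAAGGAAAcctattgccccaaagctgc
Ncf1: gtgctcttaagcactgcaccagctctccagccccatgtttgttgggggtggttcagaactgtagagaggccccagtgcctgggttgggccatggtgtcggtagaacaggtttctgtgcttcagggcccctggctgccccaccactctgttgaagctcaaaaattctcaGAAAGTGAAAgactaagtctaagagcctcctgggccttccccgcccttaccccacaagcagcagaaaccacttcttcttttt

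Cybb had 3 matches to the interferon element, starting at -168, -124 and -29 from the annotated start, and Ncf1 had 1, starting at -82. Of 32851 promoters of the same 300 bases (250 before and 50 after the start), 3.44% held at least 1 match on either strand. Cybb also held the composite element (GGAA, any 2 bases, GAAA) bound by an ETS factor such as PU.1 together with an IRF factor, at 4 to 13 bases after the start, where 2.72% of promoters held one. It overlapped a match to the ETS core GAGGAA at 10 to 15, a motif present in 28.3% of promoters. That site is shown with the letters of both motifs in capitals, at chrX:9469304-9469327.
Cybb site: tgctgtTTTCATTTCCTCatcaga

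The Cyba promoter had no match to these 3 motifs. The STAT motif (TTC, any 3 bases, GAA) was found once in Ncf1, at -88 to -80 and overlapping the interferon element, and in 8.3% of all promoters. The loose pattern of GGG, any 5 bases and CC, which resembles a kappaB site, was in all 3 promoters and in 50.8% of the table. These are matches of letters and were not tested for binding.

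The plot of levels by culture gives every value of the 6 transcripts. Ncf1 moved most between groups, and the others stayed within narrow ranges. The group means of Ncf1 spanned 0.78 on the log2 scale, against 0.38 for Rac2, 0.25 for Cyba, 0.22 for Rac1, 0.22 for Cybb and 0.15 for Ncf4. Over all 10236 genes the median of this span was 0.51, so 5 of the 6 lay below it. None of the 6 changed 2-fold in any comparison.

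**Figure D1:**
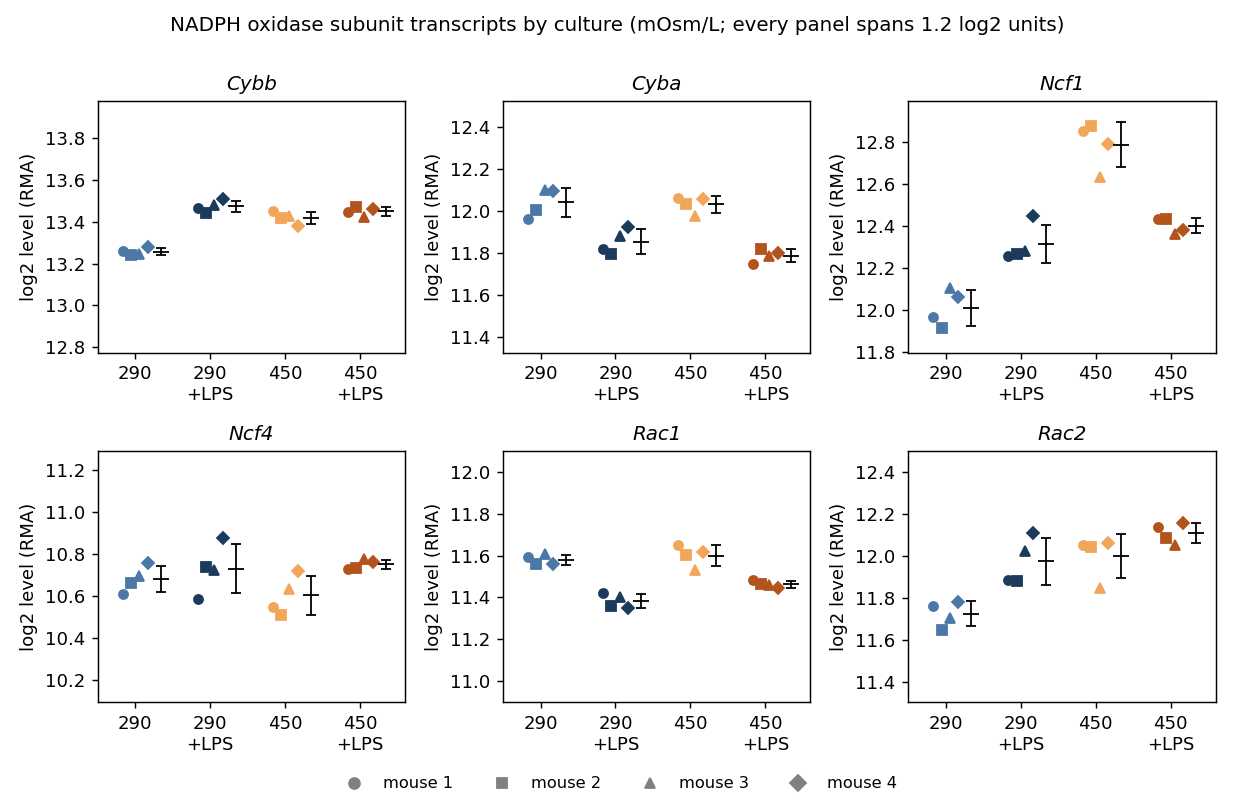
Log2 level of each subunit transcript (vertical axes, each spanning 1.2 log2 units) in the 4 groups, named by osmolarity in mOsm/L and LPS; each point is 1 culture, the marker shape is the mouse, and bars give the mean and SD of 4 cultures. The 450 mOsm cultures of Ncf1 lie between 12.63 and 12.88, above all cultures of the other groups, and the Ncf4 groups largely overlap.

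Salt in resting cells was the first comparison, 450 against 290 mOsm without LPS. Ncf1, the organiser, rose 1.71-fold, Rac2 rose 1.21-fold and Cybb rose 1.12-fold, while Cyba, Ncf4 and Rac1 did not pass. A gene was called when limma's adjusted p, over all genes tested, was under 0.05. Of the 6 members 3 were called, all higher, where 44.3% of all genes were called (20.6% higher and 23.7% lower). Groups did not overlap for 3 of 6 members, against 36.8% of all genes. The share called in either direction is near that of all genes. With only 6 members, the shares by direction and by overlap rest on few genes. Of the genes called, 46.4% were higher, and 30.4% with median centring. By size, the change of Ncf1 exceeded that of 96.7% of genes, Rac2 that of 76.6% and Cybb that of 52.9%.

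Ncf1 stood at 11.97, 11.92, 12.1 and 12.06 (log2 level, mice 1 to 4) in the 290 mOsm cultures. At 450 mOsm it stood at 12.85, 12.88, 12.63 and 12.79. Every salt culture was above every control, with mouse 3 the lowest of the salt cultures and the highest of the controls. The difference was 0.78 ± 0.06 (log2, standard error, n = 4 against 4, adjusted p = 2.1e-08), and the 4 mice gave between 0.53 and 0.96. Over 30 alternative settings it lay between 0.72 and 0.86.

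Rac2, the GTPase of blood cells, had levels of 11.76, 11.65, 11.71 and 11.78 at 290 mOsm. At 450 mOsm its levels were 12.05, 12.04, 11.84 and 12.06. The salt cultures were all higher, and mouse 3 was again the lowest of them. The difference was 0.28 ± 0.06 (n = 4 against 4, adjusted p = 0.00165).

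Cybb, the catalytic chain, was tightly spread at 290 mOsm, with 13.26, 13.24, 13.25 and 13.28. At 450 mOsm it had 13.45, 13.41, 13.42 and 13.38. The groups did not overlap, and the difference was 0.16 ± 0.04 (n = 4 against 4, adjusted p = 0.00315), positive in 4 of 4 mice. With each array centred on its median it was 0.10 and did not pass (adjusted p = 0.0809). Its levels lay near the top of the scale, whose highest value on any array was 14.32.

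The other 3 gave no call, and their intervals bound what salt could have done at this precision. Cyba differed by -0.01 (95% interval -0.11 to 0.09), Rac1 by 0.02 (-0.07 to 0.11) and Ncf4 by -0.08 (-0.21 to 0.05). Ncf4 was lower at 450 mOsm in 4 of 4 mice, and its groups overlapped.

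Next, salt was compared in LPS-treated cells. In limma 0 of 6 members passed, where 38.6% of all genes did (16.8% higher and 21.8% lower), and 1 of 6 had an unadjusted p under 0.05. That member was Rac2, at 0.13 ± 0.06 (n = 4 against 4, adjusted p = 0.0963, higher in 4 of 4 mice). Rac2 passed after quantile normalization (0.16, adjusted p = 0.0444), after cyclic loess (0.18, adjusted p = 0.0414) and when replicate 4 of the LPS group at 290 mOsm was left out (0.18, adjusted p = 0.0339). Rac1 was 0.08 ± 0.04 higher (n = 4 against 4, adjusted p = 0.137), passed after cyclic loess (0.12, adjusted p = 0.022), and was the 1 member whose groups did not overlap, against 39.4% of all genes.

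Ncf1 had 12.26, 12.27, 12.28 and 12.45 at 290 mOsm with LPS. At 450 mOsm with LPS it had 12.43, 12.43, 12.36 and 12.38. The groups overlapped through mouse 4, the highest of the first group. The difference was 0.09 (95% interval -0.04 to 0.22), and that of Cybb was -0.02 (-0.11 to 0.06). Cyba (-0.07, interval -0.17 to 0.03) and Ncf4 (0.02, interval -0.11 to 0.15) did not pass either.

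The difference between these 2 salt effects was tested as an interaction. The salt effect on Ncf1 was 0.69 ± 0.09 smaller on the log2 scale with LPS than without it (interaction -0.69, n = 4 per group, adjusted p = 1.64e-05). The 4 mice gave between -0.80 and -0.45, and the change was larger in size than that of 95.3% of genes. For Cybb the interaction was -0.18 ± 0.06 (n = 4 per group, adjusted p = 0.0229), negative in 4 of 4 mice. That call was lost without any 1 of the mice (adjusted p from 0.0662 to 0.128), with no filter (0.0864) and with median centring (0.105). These 2 were the members called of 6, both lower, where 21.1% of genes were called (10.7% higher and 10.4% lower). Rac2 (-0.14 ± 0.09, n = 4 per group, adjusted p = 0.28), Cyba, Ncf4 and Rac1 did not pass, so no difference between their salt effects was shown. Without replicate 2 the interaction called 1383 genes rather than 2161.

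**Figure D2:**
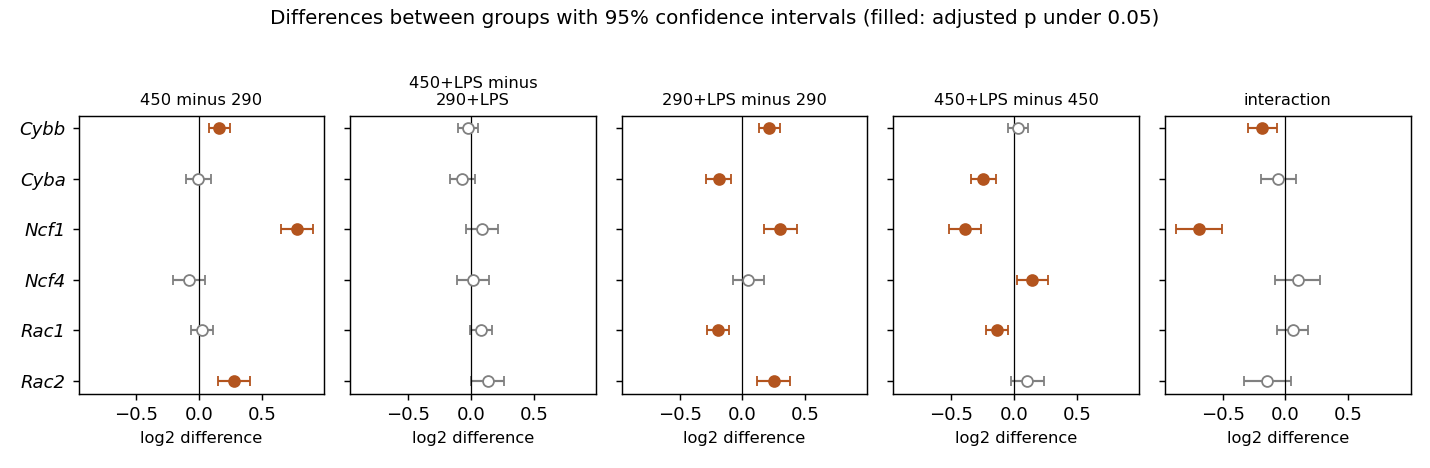
Log2 difference of each subunit transcript (horizontal axis) in 4 comparisons and their interaction, with limma's 95% confidence interval; n = 4 cultures per group, and filled points passed an adjusted p of 0.05. Ncf1 is 0.78 higher with salt alone and 0.39 lower with LPS at 450 mOsm, and with salt in LPS-treated cells none of the 6 passes.

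LPS at normal osmolarity split the subunits in direction. It raised Ncf1 (0.30 ± 0.06), Rac2 (0.25 ± 0.06) and Cybb (0.22 ± 0.04), and lowered Rac1 (-0.20 ± 0.04) and Cyba (-0.19 ± 0.05), each with n = 4 against 4 and an adjusted p of at most 0.00167. Ncf4 differed by 0.05 ± 0.06 and did not pass (n = 4 against 4, adjusted p = 0.474). In all 5 of 6 members were called, where 73.5% of all genes were called (26.4% higher and 47.1% lower), and 5 had groups that did not overlap, against 69.1% of genes. LPS moved the median of all genes by -0.11 at 290 mOsm and by -0.09 at 450 mOsm. Relative to that median, Cyba and Rac1 were lower by less than 0.1 at 290 mOsm. Of the genes called, 35.9% were higher at 290 mOsm and 36.8% at 450 mOsm, and after cyclic loess 50.8% and 50.4% were.

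After cyclic loess, which removes that shift, the falls of Cyba and Rac1 were each -0.09 and no longer passed (adjusted p = 0.102 and 0.0523), while Ncf4 rose (0.18, adjusted p = 0.0203). Over 30 alternatives the Ncf4 change ran from -0.13 to 0.18, and only cyclic loess called it. The rise of Rac2 was lost after quantile normalization (0.13, adjusted p = 0.0572). Those of Cybb and Ncf1 were kept in each of 30 alternatives, at 0.16 to 0.28 and 0.22 to 0.39.

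Cybb with LPS at 290 mOsm had levels of 13.46, 13.44, 13.48 and 13.51, all above the untreated cultures given earlier. Its differences by mouse were 0.20, 0.20, 0.23 and 0.23. Cyba stood at 11.96, 12.01, 12.1 and 12.09 without LPS and at 11.82, 11.8, 11.88 and 11.93 with it. Every LPS culture of Cyba was below every untreated one, and the mice gave falls between -0.22 and -0.15.

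Rac1 had 11.59, 11.56, 11.61 and 11.56 at 290 mOsm, and 11.42, 11.36, 11.4 and 11.35 with LPS. These groups did not overlap. Rac2 with LPS had 11.89, 11.88, 12.02 and 12.11, above all 4 untreated cultures.

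LPS in the salt-adapted cells had the opposite sign for Ncf1. The transcript fell by 0.39 ± 0.06 on the log2 scale (n = 4 against 4, adjusted p = 1.62e-05), with every LPS culture below every 450 mOsm culture without it. Cyba fell again (-0.24 ± 0.05, n = 4 against 4, adjusted p = 0.000145), at 11.75, 11.82, 11.79 and 11.8 against 12.06, 12.03, 11.97 and 12.06 without LPS. Rac1 was lower by 0.14 (-0.14 ± 0.04, n = 4 against 4, adjusted p = 0.00619), a call lost after cyclic loess (-0.05, adjusted p = 0.288) and median centring (-0.09, adjusted p = 0.0973). Cybb (0.03 ± 0.04, adjusted p = 0.485 in limma) did not pass. Rac2 (0.11 ± 0.06, n = 4 against 4, adjusted p = 0.13) was higher in 4 of 4 mice and passed after cyclic loess (0.18, adjusted p = 0.0179) and median centring (0.15, adjusted p = 0.0298). Over 30 alternatives the Rac2 change ran from -0.02 to 0.18.

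Ncf4 was called here, at 0.15 ± 0.06 (n = 4 against 4, adjusted p = 0.0356). Its levels were 10.55, 10.51, 10.63 and 10.72 at 450 mOsm and 10.73, 10.73, 10.77 and 10.76 with LPS, which do not overlap by a small margin in mouse 4. The call was lost in 10 alternatives, among them no filter (adjusted p = 0.0718) and leaving out replicate 1, 2 or 3 (adjusted p from 0.0836 to 0.173), and after quantile normalization the value was -0.05. Altogether 4 of 6 members were called, 1 higher and 3 lower, where 71.8% of all genes were (26.4% higher and 45.3% lower), and the groups of 4 members did not overlap, against 66.2% of genes. The comparisons of salt and of LPS share groups of arrays, so their values are not independent of each other.

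The order of the 4 group means differed between subunits. Ncf1 ran from 12.01 ± 0.09 (SD, n = 4) at 290 mOsm through 12.31 ± 0.09 (LPS at 290 mOsm) and 12.4 ± 0.04 (LPS at 450 mOsm) to 12.79 ± 0.11 at 450 mOsm, and only the middle neighbours were not told apart. Cybb was lowest at 290 mOsm (13.26 ± 0.02), and the other groups, from 13.42 to 13.47, did not differ between neighbours. Rac2 had the same lowest group (11.72 ± 0.06), followed by means of 11.97, 12 and 12.11 whose neighbours did not differ.

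Cyba and Rac1 were both ordered by LPS. The Cyba means with LPS were 11.79 and 11.86, and without it 12.03 and 12.04, and only the step between 11.86 and 12.03 passed (adjusted p = 0.00253 in limma). The Rac1 means with LPS were 11.38 and 11.46, and without it 11.58 and 11.6, and only the step between 11.46 and 11.58 passed (adjusted p = 0.016 in limma). That step was lost when any 1 mouse was left out (adjusted p from 0.0534 to 0.0646) and took the other direction, at 0.03, after cyclic loess. For Ncf4, from 10.6 to 10.75, no neighbours in the order differed.

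The order used 2 further comparisons. With salt and LPS together against neither, 5 of 6 members were called, Ncf1 (0.39 ± 0.06), Rac2 (0.38 ± 0.06) and Cybb (0.19 ± 0.04) higher and Cyba (-0.25 ± 0.05) and Rac1 (-0.12 ± 0.04) lower, where 78.3% of all genes were called (30.9% higher and 47.4% lower). Groups did not overlap for those 5, against 74.1% of genes. With salt alone against LPS alone, 3 of 6 were called, Ncf1 (0.48 ± 0.06), Rac1 (0.22 ± 0.04) and Cyba (0.18 ± 0.05), all higher, where 72.8% of all genes were called (45% higher and 27.8% lower). Their groups did not overlap, against 66.3% of genes, and the call of Cyba was lost with median centring (0.10, adjusted p = 0.0955). Ncf4 (-0.13 ± 0.06, n = 4 against 4, adjusted p = 0.065) was lower in 4 of 4 mice and was called lower in 8 of 30 alternatives, among them the mouse as a fixed block (adjusted p = 0.0251) and as a random block (adjusted p = 0.0479). Over the 30 alternatives the Ncf4 change ran from -0.21 to 0.09. Of the genes called, 39.5% and 61.8% were higher in these comparisons, and 51.9% and 48.9% after cyclic loess.

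Partner subunits were then set against each other within each array, as the log2 level of one minus that of the other, which removes any shift common to an array. These 3 pairs were picked after the values above were seen, so their values are a description with no test. With salt alone the Cybb minus Cyba difference went from 1.22 ± 0.07 (SD, n = 4) to 1.39 ± 0.05, a change of 0.17, which was 0.09 after quantile normalization. It grew by 0.40 with LPS at 290 mOsm and by 0.28 with LPS at 450 mOsm.

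Rac2 minus Rac1 grew by 0.26 with salt alone, by 0.45 with LPS at 290 mOsm and by 0.24 with LPS at 450 mOsm. Ncf1 minus Ncf4 went from 1.33 ± 0.07 (SD, n = 4) to 2.19 ± 0.18 with salt alone, a change of 0.86. It grew by 0.25 with LPS at 290 mOsm and changed by -0.53 with LPS at 450 mOsm. In these 9 cases 4 of 4 mice had the same sign. With salt in LPS-treated cells the changes of Cybb minus Cyba (0.04) and Ncf1 minus Ncf4 (0.07) had the same sign in 4 of 4 mice, and that of Rac2 minus Rac1 (0.05) in 2 of 4.

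**Figure D3:**
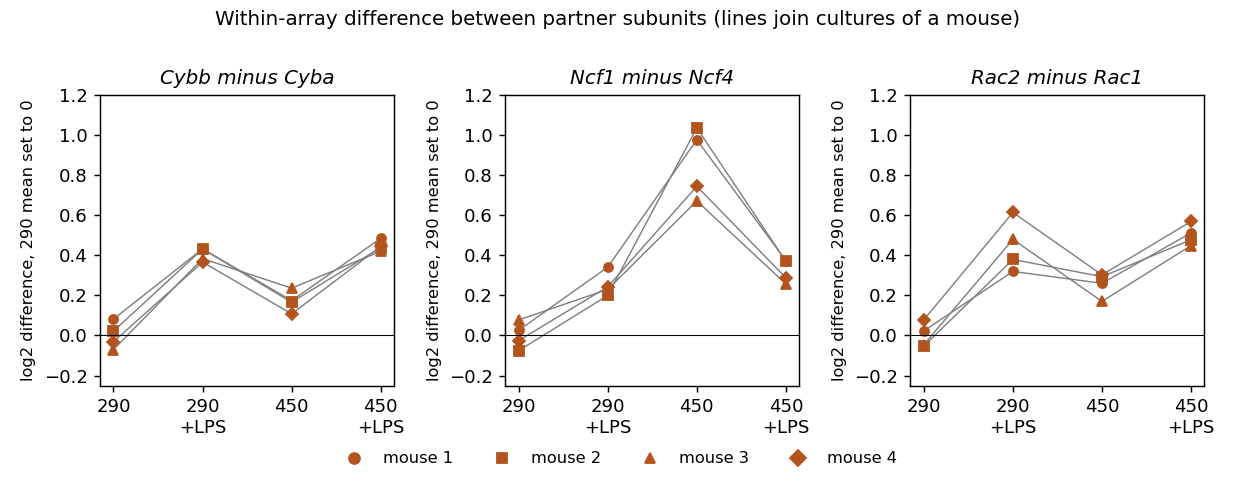
Within-array log2 difference between partner subunits (vertical axes), set to a mean of 0 in the 290 mOsm cultures; each marker is 1 culture of the group on the horizontal axis (mOsm/L) and lines join the cultures of a mouse. Ncf1 minus Ncf4 is 0.86 higher with salt alone, while Cybb minus Cyba and Rac2 minus Rac1 are higher with LPS at both osmolarities.

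The largest member change can be set against the whole table. The histogram of changes shows Ncf1 in the upper tail of the salt effect without LPS and in the lower tail of the interaction. The other 5 members lie closer to the centre. By signed value Ncf1 exceeded 98.6% of genes for salt without LPS, Rac2 90.1% and Cybb 77.8%. For the interaction 2.21% of genes were lower than Ncf1 and 17.8% lower than Cybb.

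**Figure D4:**
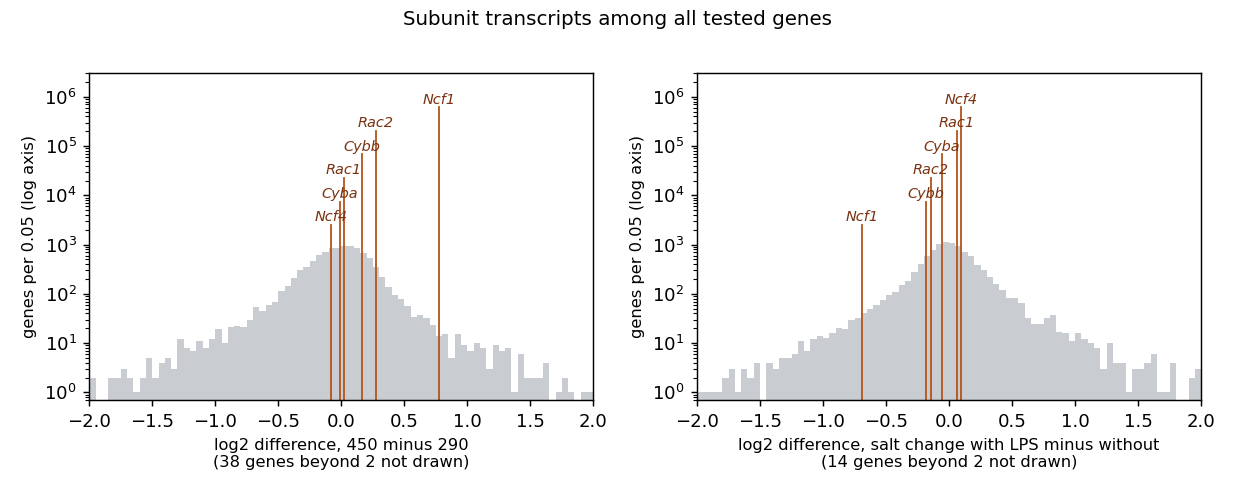
Distribution of log2 differences over the 10236 tested genes (bins of 0.05, logarithmic vertical axis) for 450 minus 290 mOsm and for the interaction, with the 6 subunit transcripts marked by lines whose heights carry no value. Ncf1 stands at 0.78 and at -0.69, and the other 5 lie between -0.08 and 0.28 and between -0.18 and 0.10.

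The genes whose levels followed each member most closely were listed by Pearson's r over the 16 arrays, as a description in which arrays share groups and mice. For Ncf1 they were Ifitm6 (r = 0.985), Pacs2 (0.947) and Klf2 (0.932). For Cybb they were Il10ra (0.963), Cmtm7 (0.953) and Il1r2 (0.953), and for Rac2 they were Ly6e (0.940), Sfxn2 (0.937) and Dcaf15 (0.929). Cyba was followed by Cnpy3 (0.973), Ubap2l (0.972) and Cd37 (0.971), Rac1 by P2rx7 (0.975), Ppip5k1 (0.971) and Tmed4 (0.966), and Ncf4 by Tcirg1 (0.910), Ly9 (0.883) and Mafg (0.855). Ifitm6 belongs to a family of similar genes that can share probes.

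Activators of the oxidase and regulators of Rac made up the first list of other pathway genes, of which 22 of 26 were tested. Salt without LPS raised 7 of 22 and lowered 3, where 20.6% of all genes were higher and 23.7% lower. The Rac exchange factor genes Tiam1 (0.51 ± 0.07) and Prex1 (0.23 ± 0.05) rose, as did Pla2g4a (0.30 ± 0.07), a phospholipase gene, and the Rac-regulated kinase gene Pak2 fell (-0.24 ± 0.04). Salt with LPS raised 6 and lowered 7 (all genes, 16.8% and 21.8%), with Prex1 (0.30 ± 0.05) among those that rose and the Rac exchange factor gene Vav3 (-0.29 ± 0.06) among those that fell. LPS at 290 mOsm raised 7 and lowered 10, which became 9 and 6 after cyclic loess, and LPS at 450 mOsm raised 7 and lowered 11. Of all genes 26.4% were higher with LPS at either osmolarity, and 47.1% and 45.3% were lower.

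Among the LPS falls were the Rac exchange factor genes Vav2 (-1.22 ± 0.07 at 290 mOsm) and Dock2 (-0.84 ± 0.05) and the kinase gene Prkcb (-0.80 ± 0.06), while Pla2g4a rose (1.64 ± 0.07). The list medians were 0.06, 0.01, -0.09 and -0.17 in the same 4 comparisons, beside 0.00, 0.00, -0.11 and -0.09 for all genes. The interaction called 5 of 22, where 21.1% of all genes were called, and Pik3cd (-0.45 ± 0.10), Vav3 (-0.35 ± 0.08) and Prkcd (-0.26 ± 0.07) were lower.

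Transcription factors known at promoters of these genes were next, with 11 of 15 tested. Salt without LPS called 3 of 11, where 44.3% of all genes were called, with Cebpb (0.26 ± 0.07) and Runx1 (0.19 ± 0.07) higher and Cebpa (-0.30 ± 0.07) lower; Runx1 was lost with median centring (0.14, adjusted p = 0.0941 in limma). The count of 2 higher and 1 lower became 4 and 1 after quantile normalization and 5 and 1 after cyclic loess. Spi1, which encodes PU.1, rose with LPS at 290 mOsm (0.33 ± 0.05) and was lower with salt in LPS-treated cells (-0.15 ± 0.05). Its interaction was -0.20 ± 0.06 (n = 4 per group, adjusted p = 0.032). With LPS, its fall was lost after cyclic loess (-0.11, adjusted p = 0.0731), and the interaction was lost with median centring (-0.18, adjusted p = 0.0967). Irf1, an interferon response factor, rose by 2.30 ± 0.05 with LPS at 290 mOsm and by 1.89 ± 0.05 at 450 mOsm, an interaction of -0.41 ± 0.08, and Irf2 had an interaction of -0.44 ± 0.06. Irf8 rose by 1.30 ± 0.09 at both osmolarities. Cebpa was lower with LPS at 290 mOsm (-1.91 ± 0.07) and at 450 mOsm (-1.97 ± 0.07). In counts, salt with LPS raised 2 and lowered 4 (all genes, 16.8% and 21.8%), which became 4 and 3 after cyclic loess and 0 and 4 with median centring. LPS raised 6 of 11 and lowered 2 at either osmolarity, where 26.4% of all genes were higher, and 47.1% (290 mOsm) and 45.3% (450 mOsm) were lower.

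Of 13 surface receptors and adaptors that trigger the burst, 11 were tested. Salt without LPS raised 3, the Toll-like receptor genes Tlr2 (0.81 ± 0.13) and Tlr4 (0.51 ± 0.08) and the kinase gene Syk (0.23 ± 0.05), and lowered 2, where 20.6% of all genes were higher and 23.7% lower. That count became 4 and 1 after cyclic loess and 3 and 4 with median centring. Salt with LPS raised 2 and lowered 4 (all genes, 16.8% and 21.8%). Tlr4 (-0.41 ± 0.08) and Syk (-0.26 ± 0.05) then fell, while C5ar1 rose (0.49 ± 0.06). The interaction called 2 higher and 2 lower, where 10.7% of all genes were higher and 10.4% lower. Tlr4 (-0.91 ± 0.12) and Syk (-0.49 ± 0.08) were the lower ones, and C5ar1 (0.42 ± 0.09) and Fcgr3 (0.27 ± 0.09) the higher ones. That count became 1 and 3 after quantile normalization and 1 and 2 with median centring. LPS at 290 mOsm raised 5 and lowered 6, led by the Fc gamma receptor genes Fcgr1 (2.16 ± 0.08) and Fcgr4 (1.49 ± 0.08), with the complement receptor gene C5ar1 (-0.95 ± 0.06) and the beta-glucan receptor gene Clec7a (-0.75 ± 0.06) lower. LPS at 450 mOsm raised 4 and lowered 6. All 11 were called at 290 mOsm and 10 of 11 at 450 mOsm, where 73.5% and 71.8% of all genes were.

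Genes that remove superoxide and peroxide had 16 of 19 tested, and salt without LPS raised 1 and lowered 5, where 20.6% of all genes were higher and 23.7% lower. Sod2, the mitochondrial superoxide dismutase gene, rose by 0.45 ± 0.10, while the peroxiredoxin genes Prdx3 (-0.33 ± 0.08) and Prdx4 (-0.34 ± 0.08) and the sulfiredoxin gene Srxn1 (-0.62 ± 0.10) fell. Salt with LPS raised 2, Gclc (0.83 ± 0.14), which acts in making glutathione, and the heme oxygenase gene Hmox1 (0.36 ± 0.07), and lowered 3 (all genes, 16.8% and 21.8%), which became 3 and 2 after cyclic loess. LPS raised 5 and lowered 6 at 290 mOsm, with Sod2 at 1.95 ± 0.10, and raised 8 and lowered 6 at 450 mOsm, where 73.5% and 71.8% of all genes were called. At 290 mOsm the counts became 5 and 8 after quantile normalization. The interaction called 4, all higher, and after quantile normalization or cyclic loess 2 higher and 1 lower, where 10.7% of all genes were higher and 10.4% lower.

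The list of NADPH supply had 9 of 10 genes tested, and G6pdx, without a single-gene probe set, was not. It includes pentose phosphate genes whose enzymes make no NADPH themselves, among them Taldo1, Tkt, Rpia and Rpe. Salt without LPS raised 2, the isocitrate dehydrogenase gene Idh1 (0.56 ± 0.07) and the malic enzyme gene Me1 (0.50 ± 0.08), and lowered 3, where 20.6% of all genes were higher and 23.7% lower. That count became 4 and 3 after quantile normalization and after cyclic loess. Salt with LPS raised 1 and lowered 6 (all genes, 16.8% and 21.8%), with the NAD kinase gene Nadk at -0.61 ± 0.07. LPS at 290 mOsm raised 3 and lowered 6, with Idh1 at -1.69 ± 0.07, and LPS at 450 mOsm raised 2 and lowered 7, with Idh1 at -2.55 ± 0.07, so all 9 were called at both osmolarities, where 73.5% and 71.8% of all genes were. After quantile normalization and after cyclic loess 7 of 9 were called at 290 mOsm. Of the other NADPH oxidases and their adaptors, 9 of 10 were below the filter on dim probe sets, and the remaining Rac3 rose with LPS at 290 mOsm (0.22 ± 0.05) and at 450 mOsm (0.39 ± 0.05), at levels near the filter.

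The labelled cell type was checked by its markers. Of 9 measured dendritic cell markers, Cd74, H2-Ab1 and Itgax were bright in every group, with means from 11.41 to 13.66. Zbtb46, Flt3, Dpp4 and Batf3 lay near the filter level of 6.83, at 6.80, 6.34, 6.84 and 7.19 in the 290 mOsm cultures. Salt without LPS raised 2 and lowered 1 of these 9 markers, where 44.3% of all genes were called. Salt with LPS raised 2, Dpp4 (0.90 ± 0.20) and Ccr7 (0.42 ± 0.13), where 38.6% of all genes were called. It lowered 2, Flt3 (-1.02 ± 0.10) and Itgax (-0.23 ± 0.07). Of 6 measured macrophage markers, Adgre1 (12.07), C1qa (11.64), Mrc1 (11.25) and Mertk (10.88) were bright too in the 290 mOsm cultures. Marco stood at 8.84 there, and Cd163 was under the filter level in every group, with means from 5.65 to 6.02. The mean level of the macrophage list was 9.99 to 10.09 in the 290 mOsm cultures and 9.55 to 9.69 in the 450 mOsm cultures. The T, B and NK cell lists had array means from 4.92 to 6.86, where most of their genes were under the filter level. Cd4, of the T cell list, was brighter, at 9.21 in the 290 mOsm cultures. It fell with salt without LPS (-1.29 ± 0.12) and with salt in LPS-treated cells (-0.88 ± 0.12), while Cd3e did not pass in either.

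Neutrophils carry much of this oxidase, and their markers moved with salt. All 14 neutrophil genes fell with salt without LPS, with a median of -3.01, and 13 of 14 fell with salt in LPS-treated cells, with a median of -2.49. At 450 mOsm the group means of 9 of 14 lay under the filter level, and 8 of 14 with LPS, so their falls are bounded by the floor. Others stayed bright, as Mmp8 at 450 mOsm (12.12) and Lcn2 at 450 mOsm with LPS (13.41). The mean log2 level of the neutrophil list was 9.64 to 10.15 in the 290 mOsm cultures and 6.79 to 6.94 in the 450 mOsm cultures. With LPS it was 9.73 to 10.14 and 7.45 to 7.68. Ncf1, Cybb and Rac2 were thus higher in the resting cultures where the list was lower. Of 5 macrophage genes tested 4 fell with salt without LPS and 5 with salt with LPS. Of 4 monocyte genes 2 and 3 fell, and of 4 mast cell and basophil genes 4 and 2 fell. Of all genes 23.7% were lower with salt without LPS and 21.8% with salt with LPS. In LPS-treated cells salt raised the monocyte gene F13a1 (0.35 ± 0.11) and the mast cell gene Kit (0.28 ± 0.08). The part of these marker changes in the changes of the subunits was not tested. In RNA from whole cultures fewer cells of a type and less RNA per cell cannot be told apart.

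**Figure D5:**
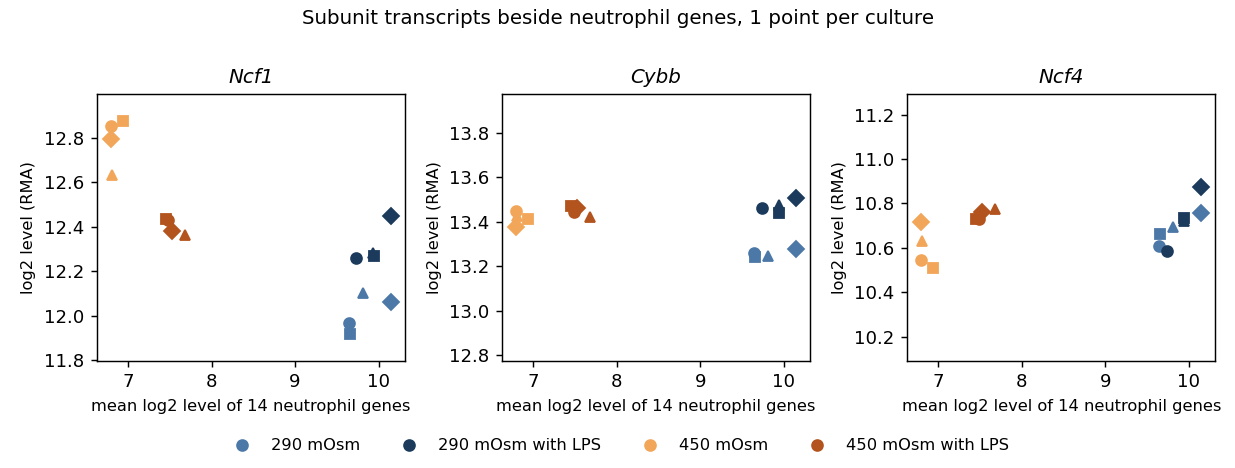
Log2 level of 3 subunit transcripts (vertical axes, each spanning 1.2 log2 units) against the mean log2 level of 14 neutrophil genes (horizontal axis) in 16 cultures; colour gives the group and marker shape the mouse. The neutrophil mean is 6.79 to 6.94 in the 450 mOsm cultures, where Ncf1 is highest, and 9.64 to 10.15 in the 290 mOsm cultures, where Ncf1 and Cybb are lowest. The Cybb group mean is highest (13.47) with LPS at 290 mOsm, where the neutrophil mean is 9.73 to 10.14. Group means of Ncf4 run from 10.6 to 10.75.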

How the data were processed

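The authors deposited log2 expression values, 1 per probe set and array, made by RMA in the oligo package per the submitters' processing notes. RMA corrects background, equalises arrays and summarises probes. Its version, like any genome build, was not given in the sources used here. Array medians lay between 6.78 and 6.93. Of 22549 probe sets, 20646 had 1 gene symbol in the platform annotation, 551 several and 1352 none. Probe sets above 6.83, the median of all values, on at least 4 arrays were kept, and a gene was represented by the brightest on average of its single-gene probe sets, giving 10236 genes. Precision is limited by the number of arrays.

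Differences were tested in limma 3.58.1 (R 4.3.3) with 1 mean per group and no block, two-sided, with Benjamini-Hochberg adjustment over all genes of a comparison. The model was tested on simulated data. Members and lists were chosen with earlier results of these data known. From each list up to 4 genes per comparison could be named, those with the smallest adjusted p, and Spi1, as the factor of a printed motif, is given with LPS at 290 mOsm outside this rule, chosen after its values were seen. For each member the 3 closest genes are named. The same mouse identifiers in every group pair the arrays: deviations from group means correlated with a median r of 0.0953 over 24 same-mouse pairs across genes, against -0.0351 for different mice. Alternatives were the mouse as a fixed or random block, filters, probe set averaging, 3 rescalings, another variance model, only the groups compared, and leaving out each mouse or array. Motifs were searched in RefSeq promoters.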

Additional observations from a re-analysis of the deposited data

Results flagged for a closer look

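Ncf1 in replicate 4 of the LPS group at 290 mOsm stood at 12.45, far from the others of its group, the nearest of which was at 12.28. Rac2 in the 450 mOsm replicate 3 array stood at 11.84, with the nearest of its group at 12.04. Chance flags about 1 in 20 groups of 4, and 24 groups were looked at. The salt effect with LPS differed from that without LPS for Ncf1, by -0.69, and for Cybb, by -0.18, in the interaction test. Without replicate 4 the interaction of Ncf1 remained called, and that of Cybb did not (adjusted p = 0.0662 in limma).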

How the results depend on the processing

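The replicate block by mouse called 4763 genes for salt without LPS (4530 without the block), 4225 for salt with LPS and 2359 for the interaction, and left the count of members called as it was in those 3 comparisons and in both LPS comparisons. It changed 1 member call, Ncf4 at 450 mOsm against 290 mOsm with LPS (-0.13, adjusted p = 0.0251, and 0.065 without the block, in limma). For salt with LPS, the members called went from 0 to 1 after quantile normalization and to 2 after cyclic loess, and were 0 to 1 when a mouse or an array was left out. For the interaction they went from 2 to 1 with no filter and with median centring, and were 1 to 2 when a mouse or an array was left out, with 1383 to 2266 genes called. Of 1254 alternative values of member changes, 27 lost and 18 gained a call and 2 reversed: Ncf4 with LPS at 450 mOsm after quantile normalization (-0.0543) and Rac1 at 450 mOsm with LPS against 290 mOsm after cyclic loess (0.0339). Alternatives for the within-array pair differences were added after seeing the data. Cybb lies near the top of the scale, and the depth of signal of the other 5 was well above the filter level.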
